A study of Drosophila melanogaster with 12 samples.

Results

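Irradiated p53 mutant embryos were compared with mock-treated p53 mutant embryos of the fly Drosophila melanogaster, to describe what radiation does to transcripts when p53 is missing. The comparison rests on 2 of the 12 samples in the series, 1 RNA library per group. It took in 10654 of the 16510 genes in the embryo table, those at 1 FPKM (fragments per kilobase of transcript, scaled to library size) or more in any of the 4 embryo groups. The other samples are RNA libraries of wild-type embryos and adult heads, and chromatin precipitated with a p53 antibody.

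The irradiated mutant embryos were of strain p535A-1-4, received 40 Gy of ionizing radiation at an age of 3 to 4 h, and were sampled 1.5 h later, at 4.5 to 5.5 h. The mock-treated mutant embryos were of the same strain and age and received no dose. Irradiated and mock-treated wild-type embryos, of strain yw, were handled in the same way. All embryos were dechorionated with bleach, and polyA RNA was made into stranded paired-end libraries. The 2 genotypes are different strains, so other differences of their genomes and the p53 allele cannot be told apart. The labels do not say how many embryos made a library.

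As background, p53 is a transcription factor that is switched on by DNA damage. In fly embryos it is known for inducing the cell death genes reaper, hid and sickle, whose products block the caspase inhibitor Diap1, and a group of DNA repair genes. Checkpoint kinases that sense DNA breaks act upstream of p53 and also stop the cell cycle without it. The strain p535A-1-4 carries a targeted deletion of the p53 gene.

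With 1 library per group there is no replicate check and no test, and no p-value is given. "Rose" and "fell" are used of genes past 2-fold, a difference of at least 1 in log2(FPKM + 1), a scale that understates the change of low genes. Intervals of a ratio are exact binomial 95% intervals on estimated fragments and cover counting error only. Depth was estimated from how FPKM values of weakly expressed genes are spaced, and came to 22.6 M fragments in irradiated and 21.2 M in mock-treated mutant embryos, against 20.9 M and 19.2 M in the wild type. Markers of embryos of this age were present in all 4 libraries. The 9 markers, among them the patterning genes en, wg and Kr and the proneural gene l(1)sc, summed to 628.5 FPKM in irradiated and 723.7 FPKM in mock-treated mutant embryos. They summed to 669.5 FPKM in irradiated and 796.7 FPKM in mock-treated wild-type embryos. The male tract genes SP, Acp26Aa and Mst84Da, the chorion genes Cp15 and Cp16 and the photoreceptor gene Rh3 were listed at 0 in all 4. Other markers of those sources were low but not absent. The 8 adult fat body and ovary markers summed to 3.44 FPKM in irradiated and 4.35 FPKM in mock-treated mutants, against 5.31 FPKM in irradiated and 4.70 FPKM in mock-treated wild-type embryos, with the chorion gene Cp18 the highest in mock-treated mutants at 2.04 FPKM. The male tract gene Mst87F and the photoreceptor gene Rh6 were at 0.19 to 0.45 FPKM in the 4 libraries. Of the 2 genes taken as markers of later muscle, the myosin gene Mhc was at 95.1 FPKM in irradiated and 112.9 FPKM in mock-treated mutants. In wild-type embryos Mhc was at 119.0 FPKM after radiation and 121.6 FPKM after mock treatment. The other, the actin gene Act88F, was at 0.06 to 0.32 FPKM in the 4 libraries.

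The p53 transcript (3R:23049657-23054082 on dm6) was at 0.34 FPKM in irradiated and 0.70 FPKM in mock-treated mutant embryos. In wild-type embryos it was at 54.5 FPKM after radiation and 25.9 FPKM after mock treatment. The levels matched the strain labels.

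A list of p53 targets held 15 genes, and none passed 2-fold in the mutant, where 1.97% of all genes did so in either direction. The list includes p53 itself, which is deleted in the mutant and was below 1 FPKM in both mutant libraries. The list median was 0.12, against 0.04 over all genes. In wild-type embryos 11 of the 15 rose and the median was 1.27, with 1.32% of all genes higher and 0.892% lower. Among these 11 is p53, with a wild-type difference of 1.04.

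The cell death genes were slightly lower in irradiated than in mock-treated mutants. Reaper (rpr) was at 24.5 FPKM in irradiated and 30.0 FPKM in mock-treated mutant embryos, a difference of -0.28 with a ratio interval of 0.714 to 0.933. Sickle (skl) was at 22.1 FPKM in irradiated and 24.1 FPKM in mock-treated mutants, a difference of -0.12, and its interval of 0.820 to 1.03 included no change. Hid (W) was at 32.5 FPKM in irradiated and 38.1 FPKM in mock-treated mutants, a difference of -0.23. Corp was at 21.7 FPKM in irradiated and 25.2 FPKM in mock-treated mutants. The tumour necrosis factor gene egr was nearly level, at 25.8 FPKM in irradiated and 26.1 FPKM in mock-treated mutants. In irradiated wild-type embryos rpr reached 208.3 FPKM, skl 173.6 FPKM, Corp 136.7 FPKM, W 113.0 FPKM and egr 68.0 FPKM, all above their irradiated mutant levels. The related gene grim was at 4.47 FPKM in irradiated and 5.81 FPKM in mock-treated mutants, and it did not pass 2-fold in the wild type either.

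The repair genes of the same list lay on the other side of 0, all short of 2-fold. RnrL, the large subunit of ribonucleotide reductase, was at 116.8 FPKM in irradiated and 91.9 FPKM in mock-treated mutants, a difference of 0.34 with a ratio interval of 1.22 to 1.32. Xrp1, a leucine zipper transcription factor, was at 36.0 FPKM in irradiated and 28.2 FPKM in mock-treated mutants, a difference of 0.34 with an interval of 1.19 to 1.36. Mre11, a nuclease that processes broken ends, differed by 0.30 and the ligase gene lig3 by 0.27. Ku80 and Irbp, the subunits of the Ku end-binding complex, differed by 0.25 and 0.21, and the polymerase zeta gene mus205 and the exonuclease gene WRNexo by 0.12 each. The intervals of all 8 left out 1, narrowly for mus205 at 1.00 to 1.22. They do not include the error of the depth estimates or any shift of the whole table, and no replicate shows how far libraries of one group would differ. The wild-type difference was 2.51 for Xrp1 and 0.72 for RnrL.

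**Figure D1:**
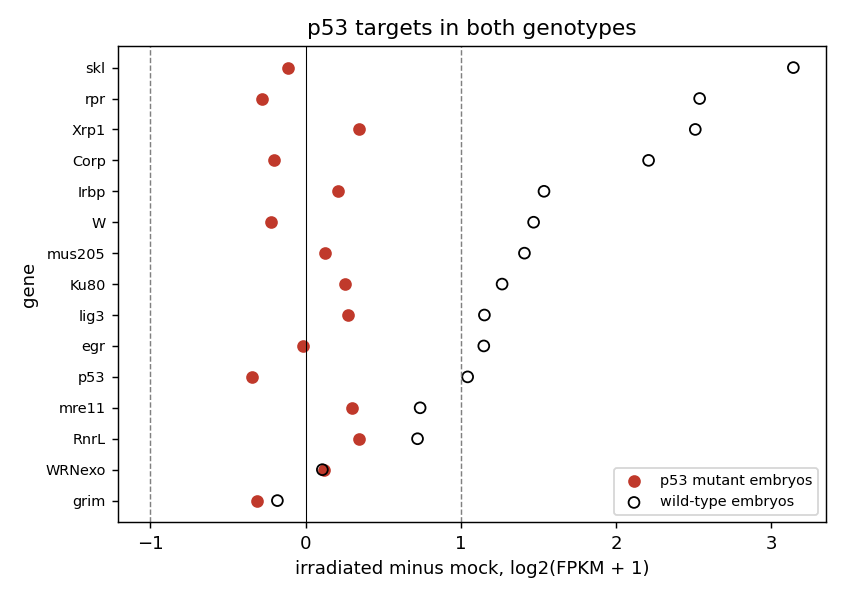
Difference between irradiated and mock-treated embryos in log2(FPKM + 1) for the 15 p53 targets, in p53 mutant (filled) and wild-type (open) embryos, 1 library per group, with dashed lines at 2-fold. All mutant points lie between -0.34 for p53 and 0.34 for RnrL, while skl reaches 3.14 in the wild type.

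Other damage response genes also stayed short of 2-fold in the mutant. Of 17 genes for damage sensing and checkpoints, none passed 2-fold and 12 lay above 0, with a median of 0.09. The largest was string (stg), the phosphatase that drives entry into mitosis, at 273.7 FPKM in irradiated and 193.7 FPKM in mock-treated mutant embryos, a difference of 0.50 with an interval of 1.38 to 1.45. String also stood higher in irradiated wild-type embryos, at 327.0 FPKM against 247.1 FPKM after mock treatment. The checkpoint adaptor Claspin differed by 0.35, the break-binding gene rad50 by 0.37 and mus304, the partner of the checkpoint kinase mei-41, by 0.43. Among the kinases of the list, the damage-sensing kinases mei-41 and tefu differed by -0.04 and -0.01, and the checkpoint kinase grp by 0.06. The checkpoint kinase lok, which acts upstream of p53, differed by 0.16 with an interval of 1.06 to 1.18, and the mitotic inhibitor kinases Wee1 and Myt1 by 0.09 and 0.29.

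Of 30 DNA repair genes, 27 lay above 0 in the mutant and 24 in the wild type, with medians of 0.13 and 0.14. The largest in the mutant was agt, a DNA alkyltransferase, at 9.54 FPKM in irradiated and 6.72 FPKM in mock-treated embryos. Of 15 apoptosis machinery genes, which include caspases and their inhibitors, none passed 2-fold and the median was 0.07. The stress lists were near 0, with medians of -0.02 for 17 JNK and immediate stress genes and -0.03 for 15 genes of the integrated stress response, and no member past 2-fold. Against these medians stands a shift of the table itself, a median difference of 0.05 over 6174 genes at 10 FPKM or more.

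Across all genes, 109 (1.02%) rose and 101 (0.948%) fell in irradiated mutant embryos. Of the 194 small RNA genes or genes with short transcripts, 44 rose and 52 fell. PolyA libraries sample such genes poorly, and FPKM is unstable for transcripts shorter than a fragment. Some of these values switched between 0 and high levels. The spliceosomal gene snRNA:U6atac:29B, for example, was listed at 0 in irradiated and at 200.2 FPKM in mock-treated mutants, but at 212.1 FPKM in irradiated wild-type embryos and at 0 in the mock-treated ones. Without them, 65 (0.621%) rose and 49 (0.468%) fell among 10460 genes. Of those 114 genes, 113 have a counting interval, and for 109 of them it leaves out 1. The genes were called on the same values, so this count largely follows from the calls and adds no support.

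The genes past 2-fold in the mutant were mostly weakly expressed. The median irradiated level of the genes that rose was 4.97 FPKM, and the median mock level of those that fell was 6.27 FPKM, against 21.1 FPKM in the higher mutant library over all genes. At 1 to 5 FPKM, 33 genes rose and 19 fell of 2239, and the middle 90% of differences ran from -0.56 to 0.55. At 5 to 20 FPKM, 26 rose and 20 fell of 2555. At 20 FPKM or more only 16 of 5360 genes changed, 6 up and 10 down, and the middle 90% of differences ran from -0.23 to 0.31. With 1 library per group, a wider spread of weakly expressed genes and a response to radiation cannot be told apart. The one changed gene at 100 FPKM or more was Gasp, a chitin-binding protein of the tracheal lining, at 50.2 FPKM in irradiated and 106.1 FPKM in mock-treated mutants.

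**Figure D2:**
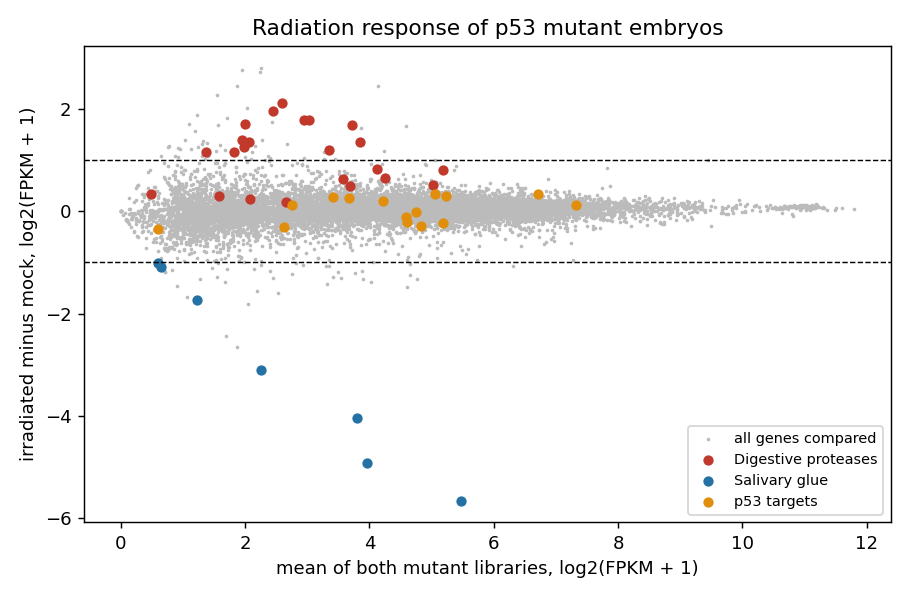
Difference between irradiated and mock-treated p53 mutant embryos against the mean of both libraries, both in log2(FPKM + 1), for the 10460 genes other than small RNA and short genes, with dashed lines at 2-fold. Digestive proteases (red) lie above 0, glue genes (blue) fall to -5.65 and the 15 p53 targets (orange) stay between the lines.

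Many digestive protease genes rose in irradiated mutant embryos. These genes encode serine proteases of the Jonah and trypsin families, which are known from the larval and adult midgut. Of 30 list members in the table, 23 reached 1 FPKM in an embryo group, and 3 of those did so only in irradiated libraries. The higher irradiated level of these 3 in part follows from how genes entered the comparison. Of the 23, 13 rose, none fell and all lay above 0, with a median of 1.16. Among all genes other than small RNA and short genes, 0.621% rose and 0.468% fell. In the wild type 13 rose as well, with a median of 1.28. The list was chosen with earlier results of these data known.

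Jon25Bii rose the most, at 8.77 FPKM in irradiated and 1.26 FPKM in mock-treated mutant embryos, a difference of 2.11 with a ratio interval of 4.28 to 11.5. In wild-type embryos it was at 15.1 FPKM after radiation and listed at 0 after mock treatment. Jon99Fi was at 7.67 FPKM in irradiated and 1.24 FPKM in mock-treated mutants, and at 19.9 FPKM in irradiated and 0.06 FPKM in mock-treated wild-type embryos. Both genes were thus high in the irradiated library of each genotype, and their mock levels were higher in the mutant. Among the trypsins, betaTry rose by 1.70, to 5.14 FPKM in irradiated against 0.89 FPKM in mock-treated mutants. It reached 1 FPKM only in irradiated libraries, so its rise in part follows from how genes entered the comparison. The trypsin gene epsilonTry rose by 1.20, to 13.2 FPKM in irradiated against 5.18 FPKM in mock-treated mutants. The most abundant member, alphaTry, was at 45.2 FPKM in irradiated and 25.5 FPKM in mock-treated mutants, a difference of 0.80 that did not pass 2-fold. In wild-type embryos alphaTry was at 4.67 FPKM after radiation and 0.24 FPKM after mock treatment.

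The higher mock level of the mutant holds for both families. The summed level of 13 Jonah proteases was 138.0 FPKM in irradiated and 49.8 FPKM in mock-treated mutant embryos, against 121.4 FPKM in irradiated and 19.0 FPKM in mock-treated wild-type embryos. The summed level of 9 trypsins was 98.8 FPKM in irradiated and 56.5 FPKM in mock-treated mutants, against 34.1 FPKM in irradiated and 11.3 FPKM in mock-treated wild-type embryos. These families were picked after their values were seen.

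Several of these genes belong to families of related genes and lie side by side, such as Jon25Bi, Jon25Bii and Jon25Biii (2L:4949941-4955144), Jon99Ci, Jon99Cii and Jon99Ciii (3R:29922216-29926189) and Jon99Fi and Jon99Fii (3R:30487016-30489895). The authors' counting could divide fragments between related genes, whose sequences were not compared here, so the value of a single member is uncertain. All 8 of these genes rose.

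Lysozymes and amylases are other enzymes of the gut. Of 12 lysozyme and amylase genes, 3 rose and none fell, with a median of 0.40. Over all genes other than small RNA and short genes, 0.621% rose and 0.468% fell. Of the 12, 4 reached 1 FPKM only in irradiated libraries. LysS and Amy-p are among these 4, so their rises in part follow from how genes entered the comparison. LysD, a lysozyme known from the midgut, was at 20.9 FPKM in irradiated and 6.10 FPKM in mock-treated mutants, a difference of 1.62 with an interval of 2.40 to 4.86. LysS rose by 1.83, to 4.11 FPKM in irradiated against 0.44 FPKM in mock-treated mutants. The amylase gene Amy-p rose by 1.22, to 1.70 FPKM in irradiated against 0.16 FPKM in mock-treated mutants. LysD lies among other lysozyme genes and is uncertain in the same way. In wild-type embryos LysD was at 4.84 FPKM after radiation and 0.73 FPKM after mock treatment. The maltase genes were level or short of 2-fold, with Mal-B2 at 11.3 FPKM in irradiated and 11.2 FPKM in mock-treated mutants.

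Salivary glue genes fell, and outside the small RNA and short genes Sgs7, Sgs5, Sgs8 and Sgs3 had the largest falls in the mutant. Glue proteins attach the pupal case to a surface and are known from the salivary glands of late larvae, well after the stage sampled here. Of 13 list members in the table, 7 reached 1 FPKM and all 7 fell, with a median of -3.09. By comparison, 0.468% of all genes other than small RNA and short genes fell. For 5 of the 7, only mock-treated libraries reached 1 FPKM, so their lower irradiated level in part follows from how genes entered the comparison. In the wild type 5 of the 7 fell, with a median of -1.74.

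Sgs7 (3L:11509861-11510247) was at 0.74 FPKM in irradiated and 86.5 FPKM in mock-treated mutant embryos, a difference of -5.65 and a ratio interval of 0.00184 to 0.0265. In wild-type embryos it was at 2.65 FPKM after radiation and 48.2 FPKM after mock treatment. Sgs8, its neighbour, was at 0.61 FPKM in irradiated and 25.4 FPKM in mock-treated mutants. Sgs3, Sgs5, Sgs7 and Sgs8 were higher in the mock than in the irradiated library of each genotype. None of them exceeded 2.65 FPKM in an irradiated library. The list member Eig71Ee changed less in wild-type embryos, at 1.36 FPKM after radiation and 2.53 FPKM after mock treatment. Sgs5 was listed at 0 in irradiated and at 29.1 FPKM in mock-treated mutants, and Sgs3 was listed at 0 in irradiated and at 7.54 FPKM in mock-treated mutants. The neighbours of Sgs5 at 3R:17594386-17598453 were also listed at 0 in irradiated mutants, against 4.43 FPKM for CG7587 (Sgs5bis) and 5.32 FPKM for CG7606 in mock-treated ones.

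The larval fat body markers were low in all 4 libraries. The larval serum genes Lsp1alpha, Lsp1beta, Lsp1gamma and Lsp2, known from the larval fat body, summed to 1.23 FPKM in irradiated and 6.08 FPKM in mock-treated mutants, against 3.27 FPKM in irradiated and 6.38 FPKM in mock-treated wild-type embryos. Lsp2 fell by 1.16, to 0.10 FPKM in irradiated mutants against 1.45 FPKM in mock-treated ones, and it reached 1 FPKM only in mock-treated libraries. The salivary gland markers Sgs3, Sgs5, Sgs7 and Sgs8 summed to 1.35 FPKM in irradiated and 148.4 FPKM in mock-treated mutants, against 4.61 FPKM in irradiated and 84.6 FPKM in mock-treated wild-type embryos. The 5 gut markers summed to 88.2 FPKM in irradiated and 43.8 FPKM in mock-treated mutants, against 49.7 FPKM in irradiated and 5.54 FPKM in mock-treated wild-type embryos. All 5 gut markers were higher in the irradiated library of each genotype and all 4 gland markers were lower. Whether cells or RNA of another stage or tissue take part in these differences was not tested. In whole embryos, fewer cells of a type and less RNA per cell cannot be told apart.

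**Figure D3:**
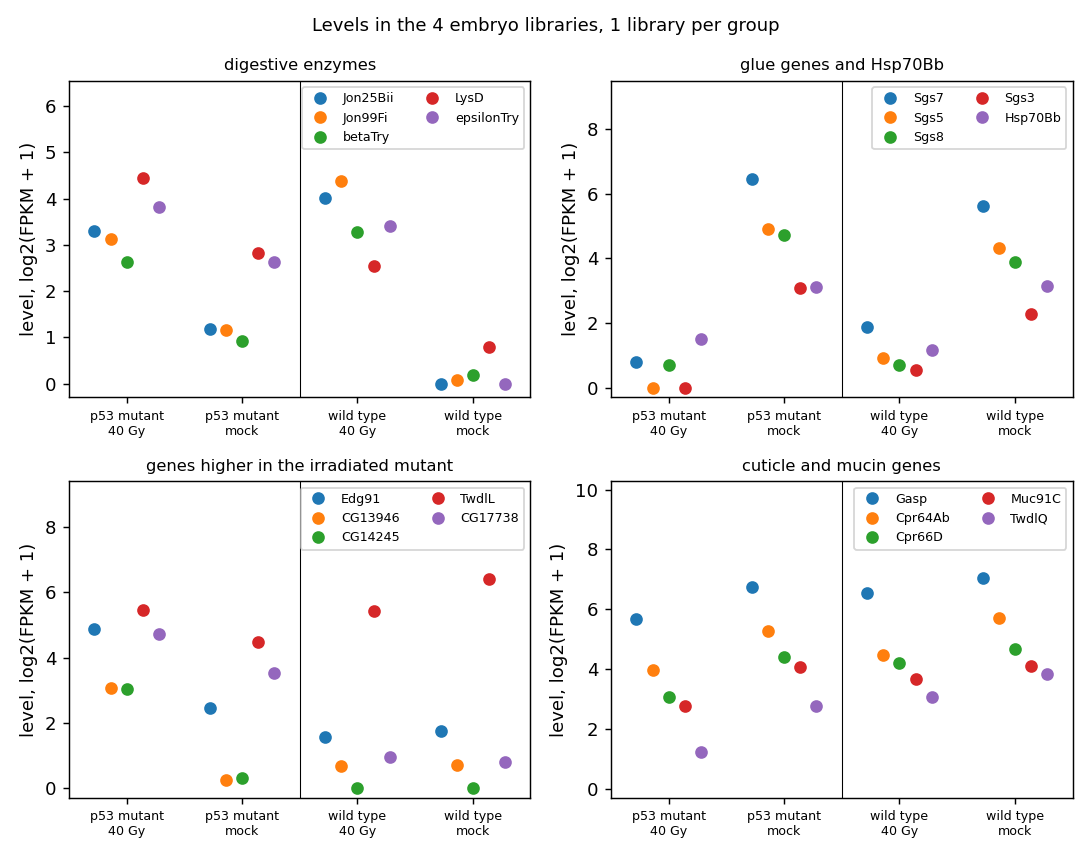
Levels in log2(FPKM + 1) of named genes in the 4 embryo libraries, irradiated left of mock-treated within each genotype, with 1 point per gene and library. Glue genes are low in both irradiated libraries, digestive enzymes are low in mock-treated wild-type embryos, and Edg91 and CG14245 are highest in the irradiated mutant.

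Cuticle genes moved in both directions. These genes encode chitin-binding and other proteins of the exoskeleton. Among 43 genes of the Cpr family, 3 fell and none rose in the mutant, with a median of 0.04. In the wild type 3 fell, with a median of -0.39. Outside small RNA and short genes, 0.621% of all genes rose and 0.468% fell in the mutant. Cpr64Ab was at 14.6 FPKM in irradiated and 37.7 FPKM in mock-treated mutants and at 21.2 FPKM in irradiated and 50.7 FPKM in mock-treated wild-type embryos, and it fell in both. Cpr66D was at 7.48 FPKM in irradiated and 20.2 FPKM in mock-treated mutants, a fall of 1.32, against a wild-type difference of -0.49. The mucin gene Muc91C fell by 1.30, to 5.75 FPKM in irradiated mutants against 15.7 FPKM in mock-treated ones. Of 20 Tweedle cuticle genes, TwdlL rose and TwdlQ fell. A separate list of 20 larval and pupal cuticle genes had no member past 2-fold and a median of -0.08.

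TwdlL was at 43.4 FPKM in irradiated and 21.1 FPKM in mock-treated mutants, a difference of 1.00 with an interval of 1.82 to 2.32. In wild-type embryos it was at 42.0 FPKM after radiation and 83.4 FPKM after mock treatment, a difference of -0.97. The irradiated levels of the genotypes were thus close, and the mock levels were far apart. TwdlQ was at 1.33 FPKM in irradiated and 5.82 FPKM in mock-treated mutants. Edg91, a glycine-rich cuticle gene known from prepupae, rose by 2.44, to 28.6 FPKM in irradiated mutants against 4.45 FPKM in mock-treated ones, with an interval of 4.65 to 9.37. In wild-type embryos Edg91 was at 1.97 FPKM after radiation and 2.33 FPKM after mock treatment.

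Many of the other changed genes have no name beyond a number. Of the 114 genes other than small RNA and short genes, 71 carry a CG or CR number and 28 belong to one of the 40 gene lists. CG13946 was at 7.33 FPKM in irradiated and 0.19 FPKM in mock-treated mutants, and its neighbour CG12506 at 5.19 FPKM in irradiated and 0.14 FPKM in mock-treated mutants. CG13947, beside them, rose by 1.26, and all 3 lie at 2L:773547-779655. In wild-type embryos CG13946 was at 0.60 FPKM after radiation and 0.63 FPKM after mock treatment. CG14245 was at 7.16 FPKM in irradiated and 0.24 FPKM in mock-treated mutants and was listed at 0 in both wild-type libraries. CG17738 was at 25.3 FPKM in irradiated and 10.6 FPKM in mock-treated mutants, but below 1 FPKM in both wild-type libraries. CG32189 was at 5.74 FPKM in irradiated mutants and 2.80 FPKM in irradiated wild-type embryos and was listed at 0 in both mock-treated libraries. CG13946, CG12506, CG13947 and CG14245 reached 1 FPKM only in irradiated mutants, and CG32189 only in irradiated libraries. The rises of these genes thus in part follow from how genes entered the comparison.

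Some changed genes lay beside other changed genes. Within 10 kb of one another, 37 of the 114 genes formed 15 runs, and in 14 of these every gene moved the same way. Several runs hold members of 1 gene family, and no share over all genes was computed. The exception is Mkp and CG34140, whose annotated intervals overlap on the same strand at 3L:182522-184540. Mkp was at 11.9 FPKM in irradiated and 34.9 FPKM in mock-treated mutants, and CG34140 at 35.6 FPKM in irradiated and 10.6 FPKM in mock-treated mutants. Fragments of the shared stretch could have been assigned to either gene, so both values are uncertain. In wild-type embryos Mkp was at 13.1 FPKM after radiation and 19.99 FPKM after mock treatment, and CG34140 at 41.4 FPKM after radiation and 36.2 FPKM after mock treatment.

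Stress and defence genes outside the p53 program moved in small numbers. Of 24 metallothionein and redox genes, 2 rose and none fell, with a median of 0.18. The 2 that rose, MtnB and MtnD, reached 1 FPKM only in irradiated libraries, so they entered the comparison through the libraries where they are high. MtnB, a copper-binding metallothionein, was at 5.54 FPKM in irradiated and 0.61 FPKM in mock-treated mutants, a difference of 2.02 with an interval of 3.13 to 51.1. In wild-type embryos MtnB was at 5.02 FPKM after radiation and listed at 0 after mock treatment. MtnD, a related gene with a short transcript, was at 4.84 FPKM in irradiated and 0.50 FPKM in mock-treated mutants. The most abundant metallothionein, MtnA, was at 392.6 FPKM in irradiated and 360.9 FPKM in mock-treated mutants. Of 35 glutathione transferase genes 1, GstD7, rose, and none of 54 cytochrome P450 genes passed 2-fold. Over all genes compared 1.02% rose and 0.948% fell. Without small RNA and short genes, of which MtnD is one, 0.621% rose and 0.468% fell.

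Of 34 immune effectors sought, 14 reached 1 FPKM. Of these 2 rose and none fell, and the median of the 14 was 0.42. Of the 14, 2 reached 1 FPKM only in irradiated libraries and 2 only in mock-treated ones. Their differences in part follow from how genes entered the comparison. The 2 that rose, IM3 and PGRP-SC2, are not among them. The share over all genes other than small RNA and short genes was 0.621% higher and 0.468% lower. IM3 (BomS3), a secreted peptide of the Toll response, was at 7.28 FPKM in irradiated and 1.48 FPKM in mock-treated mutants, but listed at 0 in irradiated and at 0.43 FPKM in mock-treated wild-type embryos. PGRP-SC2, a peptidoglycan amidase, rose by 1.03, to 2.45 FPKM in irradiated against 0.69 FPKM in mock-treated mutants. The related IM1 and IM2 differed by 0.84 and 0.94.

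Among heat shock genes the Hsp70 copies had the lowest differences. Of 16 genes, 1 fell, none rose and 12 lay below 0, with a median of -0.14 and a range from -1.60 to 0.29. Of the 16, 3 reached 1 FPKM only in mock-treated libraries, so their differences in part follow from how genes entered the comparison. The gene that fell, Hsp70Bb, is not among these 3. Small RNA and short genes aside, 0.468% of all genes fell and 0.621% rose. Hsp70Bb was at 1.85 FPKM in irradiated and 7.65 FPKM in mock-treated mutants, a fall of 1.60 with a ratio interval of 0.191 to 0.307. Its copies Hsp70Ba, Hsp70Bc and Hsp70Bbb differed by -0.95, -0.75 and -0.73, and fragments could be divided between them. In wild-type embryos 3 heat shock genes fell, and Hsp70Bb was at 1.25 FPKM after radiation and 7.85 FPKM after mock treatment. The constitutive Hsc70-4 was at 1690 FPKM in irradiated and 1613 FPKM in mock-treated mutants.

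Lists of developmental genes shifted by small amounts, with no member past 2-fold. All 8 Hox genes lay below 0 in the mutant, with a median of -0.24, and all 8 lay below 0 in the wild type, with a median of -0.25. Antp was at 22.3 FPKM in irradiated and 29.5 FPKM in mock-treated mutants, and Ubx at 31.0 FPKM in irradiated and 36.9 FPKM in mock-treated mutants. Notch targets and the Bearded family had a median of -0.21, pair rule and segment polarity genes of -0.18 and cellularization genes of -0.15. Maternal transcripts had a median of 0.15, with 20 of 32 above 0. Ribosomal protein genes lay above 0 in 42 of 42 cases in the mutant, with a median of 0.10, and below 0 in 41 of 42 cases in the wild type, with a median of -0.09. Proteasome genes lay above 0 in 29 of 29 cases in the mutant, with a median of 0.13, and below 0 in 23 and above in 6 of 29 cases in the wild type, with a median of -0.05. After the 0.05 shift of the table is taken off, the mutant medians are 0.05 for ribosomal protein genes and 0.08 for proteasome genes.

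**Figure D4:**
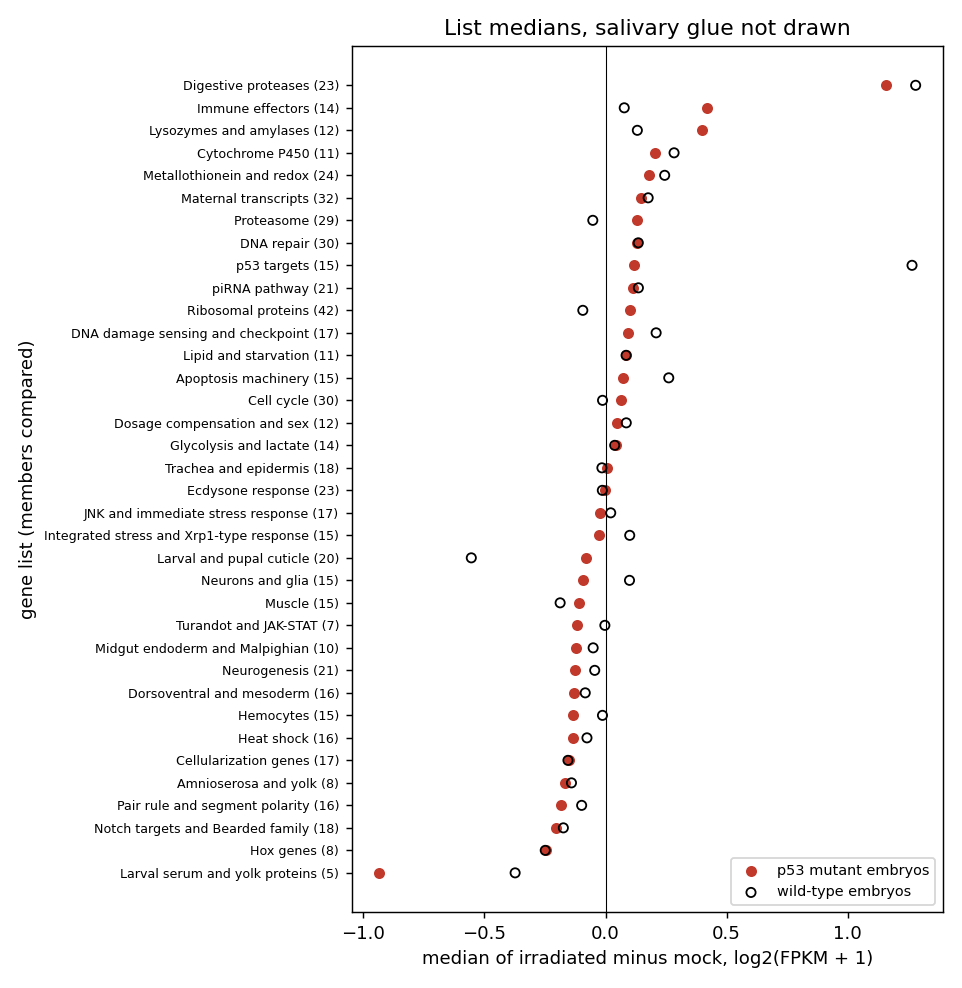
Median difference between irradiated and mock-treated embryos in log2(FPKM + 1) for gene lists with at least 5 members compared, in p53 mutant (filled) and wild-type (open) embryos, with the number of members in brackets. Among the lists drawn, digestive proteases have the highest median in both genotypes, 1.16 and 1.28. The p53 targets stand at 0.12 in the mutant and 1.27 in the wild type. The salivary glue list is not drawn, with medians of -3.09 in the mutant and -1.74 in the wild type.

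The mutant response was set beside the wild-type response to the same dose, which rests on other libraries. Among genes other than small RNA and short genes, 103 (0.985%) rose and 47 (0.449%) fell in the wild type. Of these, 24 rose in both genotypes, which is 36.9% of the mutant rises and 23.3% of the wild-type rises. A further 15 fell in both, which is 30.6% of the mutant falls and 31.9% of the wild-type falls, and no gene rose in one and fell in the other. Of the 65 mutant rises 46 lay above 0 in the wild type, and of the 49 mutant falls 44 lay below 0, while 53.8% of all genes lay above and 45.8% below.

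Genes of the protease, lysozyme, amylase and glue lists made up many of the shared rises. Without these lists 12 genes rose in both, 24.5% of the mutant rises and 13.8% of the wild-type rises, and 10 fell in both, 23.8% of each. Across the 10460 genes the differences of the genotypes had a Pearson correlation of 0.39 and a Spearman correlation of 0.27, as a description over genes, which are not independent replicates. For small RNA and short genes the Pearson correlation over 194 genes was 0.0096, with 6 higher in both, 17 lower in both and 17 in opposite directions. That the responses of the genotypes differ was not tested, because there is 1 library per group.

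**Figure D5:**
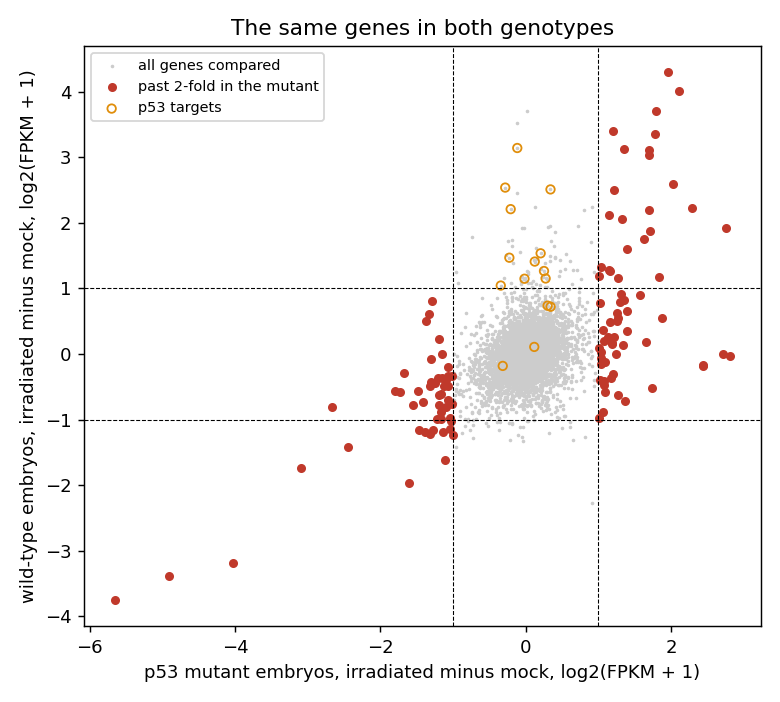
Difference between irradiated and mock-treated embryos in log2(FPKM + 1), p53 mutant on the horizontal and wild type on the vertical axis, for 10460 genes, with dashed lines at 2-fold. The p53 targets (open circles) lie near 0 on the mutant axis and up to 3.14 on the wild-type axis, and no red point lies past 2-fold in opposite directions.

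These changes were set beside adult heads of the p53 mutant, mock treated or given 40 Gy. In mutant heads 68 (0.637%) of 10672 genes rose and 78 (0.731%) fell, small RNA and short genes included. Without these, 9194 of the genes compared in embryos reached 1 FPKM in a head group. Of the 9194, 27 rose and 31 fell in mutant heads, with a median of -0.03, so few shared changes could be found. Of the 65 genes that rose in mutant embryos, 32 reached 1 FPKM in a head group, where none rose, 1 fell and the median was 0.04. That gene was MtnB, at 4.39 FPKM in irradiated and 14.3 FPKM in mock-treated mutant heads. Of the 49 genes that fell in mutant embryos, 23 reached 1 FPKM in heads, where none rose, 1, the noncoding CR45321, fell and the median was 0.07. Among the short genes, which these counts leave out, MtnD rose in both, with a difference of 1.96 in mutant embryos and 1.70 in mutant heads. Per the labels, flies were adult and had a longer recovery than embryos, so tissue and schedule cannot be told apart.

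The deposited list of 135 embryo p53 peaks, which compares wild-type with mutant chromatin, was set beside the changed genes. None of the 65 genes that rose and none of the 49 that fell had a peak within 5 kb of its annotated interval, against 182 of 10460 genes (1.74%). Of the 15 p53 targets, 6 had one, namely p53, Corp, rpr, W, egr and Xrp1. The mutant carries a deletion of the p53 gene, so binding there and DNA missing from mutant chromatin cannot be told apart. Within 1 kb the counts were 0 changed genes, 5 targets and 100 genes in all (0.956%).

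Genes near the threshold show how the counts depend on it. Just inside 2-fold at 5 FPKM or more were TwdlL at 1.00 and CG43774 at 1.00 among the rises, and CG10657 at -1.01 and CG12164 at -1.03 among the falls. Just outside were CG11368 at 0.98 and the noncoding CR40962 at 1.00, whose difference was under the threshold only before rounding, and CG32036 at -0.97 and CG30427 at -0.98.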

How the data were processed

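Per the file headers, the authors ran Cuffdiff once per tissue, and the deposited embryo and head tables list an FPKM for each gene in each group. The authors also deposited log2 columns, computed after adding 1 FPKM, which differ from the differences used here by at most 0.0131. The deposited embryo peak list gives a fold (ratio) of wild-type over mutant chromatin and −log10 p-values and −log10 q-values per peak, made by the authors with MACS2. Per the submitters' processing notes, RNA reads went through cutadapt, TopHat2, Picard and SAMtools and chromatin reads through cutadapt, Bowtie2, Picard and SAMtools, on dm6. Not given in the sources used here are versions, the authors' gene annotation, strand settings and any pooling. Cuffdiff divides fragments among overlapping genes and copies, and a change in RNA content per cell is lost in the scaling.

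Differences were taken as log2(FPKM + 1) within a table, at a minimum of 1 FPKM, and called at 2-fold. Coordinates and transcript lengths come from an annotation of the dm6 build, which matched 16260 gene symbols. Small RNA and short genes are snoRNA, snRNA, scaRNA, tRNA, rRNA and miRNA genes, by symbol or annotated class, and genes whose transcripts are under 300 bp. Fragments were estimated from FPKM, depth and mean transcript length reduced by 150 bp, one of 6 values tried with the data in view. Over the 6 values the depth estimates ran from 16.8 to 24.9 M. The peak list was used as deposited, by distance alone.

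The members and the 40 gene lists (789 symbols, of which 21 were not found) were chosen with earlier results of these data known. Named genes are p53, every p53 target, the 12 largest rises and falls at 5 FPKM or more, up to 6 changed members per list, genes changed in both genotypes and genes at the threshold. Families, the nearby runs, CG17738, CG34140, Gasp, Muc91C, alphaTry, developmental and checkpoint examples and other genes outside this rule were chosen after their values were seen. Scripts ran in Python 3.11.15 with pandas 2.3.3, numpy 2.4.6, scipy 1.17.1 and matplotlib 3.10.9, and the calls were tested on simulated data.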

Additional observations from a re-analysis of the deposited data

Results flagged for a closer look

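The log2(FPKM + 1) differences of 3 genes had opposite signs in groups given the same dose. Genes past 2-fold in mutant embryos were searched, at 5 FPKM or more in a mutant embryo library and without small RNA and short genes. The opposite difference had to be at least 0.5 in wild-type embryos or at least 1 in mutant heads. The 0.5 was chosen after the values were seen. With 1 library per group none of these differences between groups was tested. IM3 differed by 1.74 in p53 mutant embryos and by -0.516 in wild-type embryos, where its level was under 1 FPKM in both libraries. MtnB differed by 2.02 in p53 mutant embryos and by -1.51 in p53 mutant heads. TwdlL differed by 1.00 in p53 mutant embryos and by -0.974 in wild-type embryos.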

How the results depend on the processing

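The number of changed genes depends on the pseudocount and on small RNA genes. The 109 rises and 101 falls became 198 and 229 with a pseudocount of 0.1 FPKM and 41 and 50 with 5 FPKM. They became 65 and 71 among genes at 5 FPKM or more, and 65 and 49 without small RNA and short genes. They were 98 and 115 after recentring, 110 and 101 from the authors' deposited log2 column, 109 and 101 without a minimum, and 98 and 100 without copy families, an alternative chosen after seeing the data. The list medians that crossed 2-fold were larval serum and yolk proteins (-1.80 at a pseudocount of 0.1 FPKM) and digestive proteases (0.65 at 5 FPKM). At a pseudocount of 5 FPKM, 6 digestive proteases, 4 glue genes and 1 lysozyme or amylase gene passed 2-fold, and at 5 FPKM or more 4 glue genes and 1 lysozyme or amylase gene did. No p53 target passed 2-fold at either pseudocount, at 5 FPKM or more, or after recentring. At a pseudocount of 0.1 FPKM, 63 genes rose in both genotypes, 63 fell in both and 47 moved in opposite directions, against 30, 32 and 17. At 5 FPKM, 6 rose and 15 fell in both, and without small RNA genes 15 fell in both and 0 moved in opposite directions. Outside small RNA and short genes, those changed in mutant embryos and mutant heads numbered 2, and 0 at a pseudocount of 5 FPKM. Of 82 named genes, 23 dropped below 2-fold at 5 FPKM and 3 after recentring, among them TwdlL (0.89 and 0.95), and none changed sign under these settings. No paired analysis was possible because each group has 1 library, and for the same reason no library could be left out. Depth limits genes near 1 FPKM, where a few fragments decide a call.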
